A study of Mus musculus with 6 samples.

Results

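The genes described here encode receptors for the inhibitory transmitters GABA and glycine, the proteins that hold those receptors at synapses, and 2 carriers that set the chloride content of neurons. The 27 genes were taken by symbol from 39174 genes measured in primary mouse motoneuron cultures, and each symbol occurred once in every library. They comprise 13 subunits of the GABA-A receptor, 3 rho subunits, 2 subunits of the GABA-B receptor, 5 subunits of the glycine receptor, the organizers Gphn and Nlgn2, and the carriers Slc12a2 and Slc12a5.

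GABA-A and glycine receptors are pentameric chloride channels opened by their transmitter, and which way chloride flows depends on the gradient across the membrane. Slc12a2 encodes NKCC1, which brings chloride into the cell, and Slc12a5 encodes KCC2, the neuronal carrier that takes chloride out. In embryonic spinal neurons the importer is known to prevail and GABA and glycine depolarize, whereas later the exporter prevails and both transmitters inhibit. Receptor subunits are known to change over the same period, with Glra2 giving way to Glra1 in the spinal cord.

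RNA sequencing covered 6 libraries, 3 from Nmd+/+ and 3 from Nmd-/- cultures, all of strain CD-1 and given no treatment in the labels. Nmd (neuromuscular degeneration) is a mutant allele of Ighmbp2, a helicase gene whose human counterpart is mutated in the motoneuron disease SMARD1. The sources used here do not give age, pooling of animals, or whether replicates of a genotype were separate cultures, so p-values measure only the spread between these libraries, which may be technical. The values are FPKM, fragments scaled to transcript length and to the mapped fragments of the library, which allow levels of different genes to be compared per length.

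Ighmbp2 measured 1.44, 1.303 and 1.09 FPKM in Nmd+/+ replicates 1, 2 and 3 and 0.876, 0.788 and 0.598 FPKM in the Nmd-/- replicates. The groups did not overlap and every replicate number was lower in Nmd-/-, at a ratio of the means of 0.590 (limma, unadjusted p = 0.0294, which did not pass after adjustment over all genes).

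The labelled cell type was checked against its markers before the receptor genes were read. Of 7 motoneuron markers in the tables, summed levels lay between 1.66 and 2.997 FPKM, and the defining genes Chat and Mnx1 did not exceed 0.0692 and 0.0247 FPKM. Markers of inhibitory interneurons summed to between 104 and 249 FPKM, with 7 of 7 reaching 1 FPKM on average. Those of radial glia and astrocytes summed to between 3230 and 5064 FPKM, most of it Vim (2380 to 4452 FPKM). The values below are therefore those of the cultures as sequenced and are not assigned to motoneurons. Replicate number 2 of both genotypes stood apart: 14 general neuron markers summed to 1104 FPKM in the Nmd+/+ library and 1107 FPKM in the Nmd-/- library of that number, against between 1656 and 2252 FPKM in the other 4 libraries. Fibroblast markers summed to 148 and 182 FPKM in the number 2 libraries and to at most 4.13 FPKM elsewhere. Xist was at 0.155 FPKM in Nmd+/+ 2, at 0.143 FPKM in Nmd-/- 3, and between 224.5 and 272.6 FPKM in the rest, so the libraries also differed in the sex of the animals. Gabra3, Gabre, Gabrq, Glra2 and Glra4 are the X-linked genes among the 27. The depth of a library, read from the width of the deposited intervals, was equivalent to between 15446384 and 23138152 fragments.

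The sequences just upstream of 4 of the genes are shown because the genes took opposite directions between replicate numbers, as described further on. Gabra2 and Gabrg1, neighbours on chromosome 5, were higher in number 2 than in number 1, and Nlgn2 and Glra2 were among those lower there. Each run is the 150 bases before the start of the RefSeq gene (build GRCm38.p6, all on the minus strand, no annotated exon inside), 5′ to 3′, with CG pairs in capitals.

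Gabra2: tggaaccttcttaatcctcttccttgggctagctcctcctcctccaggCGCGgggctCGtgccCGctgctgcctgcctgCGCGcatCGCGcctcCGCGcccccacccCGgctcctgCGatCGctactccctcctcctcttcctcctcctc
Gabrg1: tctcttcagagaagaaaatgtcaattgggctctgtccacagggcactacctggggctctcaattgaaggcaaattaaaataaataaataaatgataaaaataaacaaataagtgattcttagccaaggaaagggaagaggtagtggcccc
Nlgn2: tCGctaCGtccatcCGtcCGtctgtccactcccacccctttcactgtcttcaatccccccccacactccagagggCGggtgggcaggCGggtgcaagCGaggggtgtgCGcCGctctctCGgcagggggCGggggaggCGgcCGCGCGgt
Glra2: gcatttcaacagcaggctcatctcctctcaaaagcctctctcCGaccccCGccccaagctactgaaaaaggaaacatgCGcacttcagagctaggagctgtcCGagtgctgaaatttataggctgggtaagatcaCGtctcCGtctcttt

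The windows lie at chr5:71095850-71095999 for Gabra2, chr5:70842618-70842767 for Gabrg1, chr11:69837785-69837934 for Nlgn2 and chrX:165327394-165327543 for Glra2. They held 13, 0, 15 and 6 CG pairs. RefSeq windows were matched for 24 of the 27 genes, with 29 start sites. In the 250 bases before each start, the median was 8 CG pairs, against 6 over all 32851 windows. Searched on both strands, with overlaps allowed, GGGCGG occurred in 15 of the 29 windows (32.7% of all windows), CCAAT in 14 (33.8% of all) and TATAAA in 4 (12.4% of all). A match describes the letters only and is not a site of binding.

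The genes spanned a wide range of levels. Of the 27, 19 reached a mean of 1 FPKM and entered the tests, on between 38.9 and 5107 fragment equivalents a gene and library. By mean level, Gabbr1 stood first at 106 FPKM and its lowest library (80.9 FPKM) lay above the highest library of any other member. Nlgn2 and Glrb followed at 34.8 and 34.0 FPKM. From Nlgn2 down to Gabrg3 (4.53 FPKM) each gene's range over the libraries overlapped that of the next. Such overlap does not settle the order within a library. Glrb lay above Gabra5 in every library, whereas Nlgn2 lay above Glrb in Nmd+/+ 1 and below it in Nmd+/+ 2. Gabrq (1.19 FPKM) and Glra3 (1.11 FPKM) lay below Gabrg3 in all libraries.

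**Figure D1:**
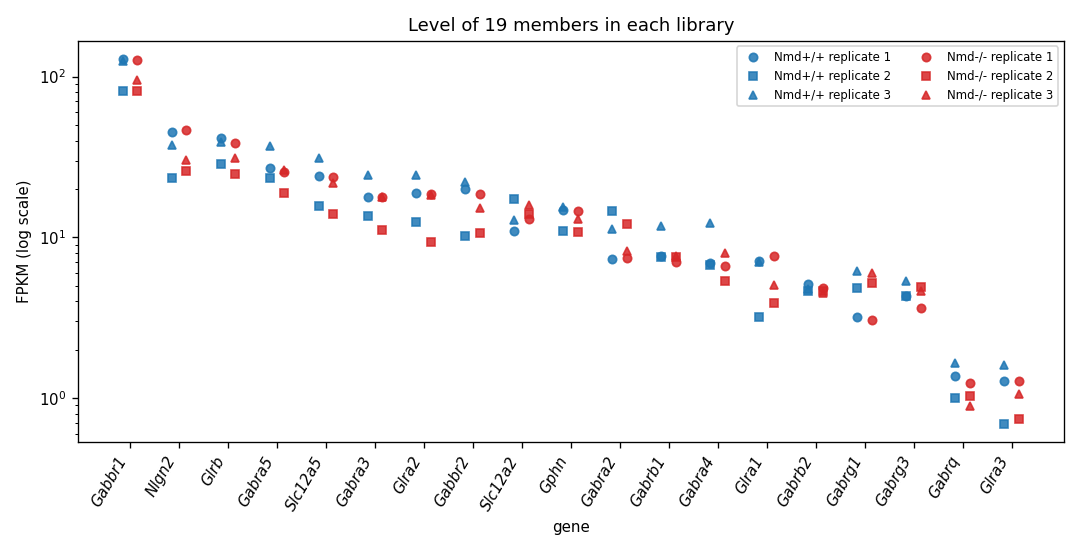
FPKM on a log axis of the 19 members with a mean of at least 1 FPKM, ordered by mean; each point is 1 library, blue for Nmd+/+ and red for Nmd-/-, with the marker giving the replicate number. Gabbr1 lies above all others, between 80.9 and 129 FPKM, and number 2 (squares) is the lowest in many genes but the highest in Gabra2.

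The GABA-A alpha subunits, which help form the transmitter site, were led by Gabra5, whose receptors are known largely outside synapses. Gabra5 measured 26.8, 23.5 and 37.1 FPKM in Nmd+/+ replicates 1, 2 and 3 and 25.3, 18.8 and 26.3 FPKM in Nmd-/- replicates 1, 2 and 3. Gabra3 followed at 17.9, 13.5 and 24.5 FPKM in Nmd+/+ and 17.9, 11.0 and 17.7 FPKM in Nmd-/-. For both genes Nmd+/+ 3 was the highest library and Nmd-/- 2 the lowest, and the genotypes overlapped. Gabra2, a subunit of synaptic receptors, was at 7.37, 14.5 and 11.3 FPKM in Nmd+/+ and 7.47, 12.1 and 8.22 FPKM in Nmd-/-. Unlike Gabra5 and Gabra3, it was highest in number 2 of either genotype. Gabra4, known from extrasynaptic receptors of the mature forebrain, was at 6.95, 6.71 and 12.3 FPKM in Nmd+/+ and 6.63, 5.31 and 7.96 FPKM in Nmd-/-. Number 3 was its highest library in both genotypes. Gabra6, a subunit of cerebellar granule cells, was listed at 0 in 4 of 6 libraries and did not exceed 0.0242 FPKM.

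The beta subunits, required for assembly and also part of the transmitter site, were both present, Gabrb1 at the higher level on average. Gabrb1 was at 7.65, 7.48 and 11.7 FPKM in Nmd+/+ and 7.04, 7.49 and 7.66 FPKM in Nmd-/-. A single library, Nmd+/+ 3, stood above the rest. Gabrb2, the beta subunit of most mature synaptic receptors, was at 5.11, 4.61 and 4.77 FPKM in Nmd+/+ and 4.85, 4.65 and 4.50 FPKM in Nmd-/-. It varied little, with all libraries between 4.50 and 5.11 FPKM.

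The gamma subunits, which place receptors at synapses, were low. Gabrg1 was at 3.17, 4.86 and 6.13 FPKM in Nmd+/+ and 3.06, 5.19 and 5.97 FPKM in Nmd-/-. The genotypes were nearly the same at each replicate number, and number 1 was the lowest. Gabrg3 was at 4.31, 4.32 and 5.37 FPKM in Nmd+/+ and 3.61, 4.90 and 4.65 FPKM in Nmd-/-, with overlapping groups. Gabrq, which encodes the theta subunit, was at 1.37, 0.994 and 1.64 FPKM in Nmd+/+ and 1.24, 1.02 and 0.892 FPKM in Nmd-/-. Gabre, the epsilon subunit gene, lay between 0.40 and 0.639 FPKM in the 6 libraries, under the minimum for testing. Gabrd, the delta subunit of extrasynaptic receptors, did not exceed 0.0490 FPKM, and the pi subunit gene Gabrp did not exceed 0.127 FPKM and was listed at 0 in 4 libraries. The rho subunits, known mainly from the retina, were as low: Gabrr1 reached 0.0502 FPKM, Gabrr2 0.289 FPKM and Gabrr3 0.0278 FPKM at most.

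The GABA-B receptor, which couples to G proteins, needs both its subunits to reach the surface and signal. Gabbr1, which carries the transmitter site, was at 129, 81.2 and 125 FPKM in Nmd+/+ and 127, 80.9 and 95.3 FPKM in Nmd-/-. Gabbr2, the signalling partner, was at 19.9, 10.2 and 22.1 FPKM in Nmd+/+ and 18.6, 10.6 and 15.1 FPKM in Nmd-/-. Both were lowest in number 2 of either genotype, and both overlapped between genotypes.

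Among glycine receptor genes the beta subunit, which binds gephyrin, was the highest and the embryonic alpha subunit came next. Glrb was at 41.6, 28.7 and 39.1 FPKM in Nmd+/+ and 38.8, 24.9 and 31.1 FPKM in Nmd-/-. Glra2 was at 18.8, 12.4 and 24.3 FPKM in Nmd+/+ and 18.5, 9.34 and 18.3 FPKM in Nmd-/-. Glra1, the subunit of adult spinal receptors, was at 7.10, 3.20 and 7.03 FPKM in Nmd+/+ and 7.61, 3.91 and 5.02 FPKM in Nmd-/-. Number 2 was the lowest library of each of these 3 genes in both genotypes. Glra3 was at 1.28, 0.688 and 1.61 FPKM in Nmd+/+ and 1.28, 0.743 and 1.05 FPKM in Nmd-/-. Glra4 did not exceed 0.110 FPKM.

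Of the organizers, Gphn encodes gephyrin, the scaffold under glycine and GABA-A receptors, and Nlgn2 encodes the adhesion protein neuroligin 2 of inhibitory synapses. Gphn was at 14.8, 10.9 and 15.5 FPKM in Nmd+/+ and 14.6, 10.8 and 12.9 FPKM in Nmd-/-. Nlgn2 was at 45.4, 23.3 and 37.3 FPKM in Nmd+/+ and 46.4, 25.9 and 30.3 FPKM in Nmd-/-. Number 1 and number 3 lay above number 2 for both genes, with no separation by genotype.

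The subunits known as embryonic outweighed those known as adult in every library. Summed FPKM of Gabra2, Gabra3, Gabra5 and Glra2 came to 70.9, 64.0 and 97.1 in Nmd+/+ and 69.1, 51.3 and 70.6 in Nmd-/-. The sums of Gabra4, Gabra6, Gabrb2, Gabrd, Glra1 and Glra3 were 20.5, 15.2 and 25.7 FPKM in Nmd+/+ and 20.4, 14.6 and 18.6 FPKM in Nmd-/-. The embryonic sum was thus 3.39 to 4.203 times the adult sum. The ratio was 3.81 ± 0.374 (SD, n = 3) in Nmd+/+ and 3.57 ± 0.209 (SD, n = 3) in Nmd-/-, a log2 difference of -0.09, and being a score over chosen genes it was not tested. Within the glycine receptor, Glra2 lay above Glra1 in all 6 libraries, by 2.39 to 3.89 times. This ratio was 3.33 ± 0.630 (SD, n = 3) in Nmd+/+ and 2.82 ± 0.709 (SD, n = 3) in Nmd-/-. Both sums were smallest in number 2, where the neuron markers were also lowest.

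**Figure D2:**
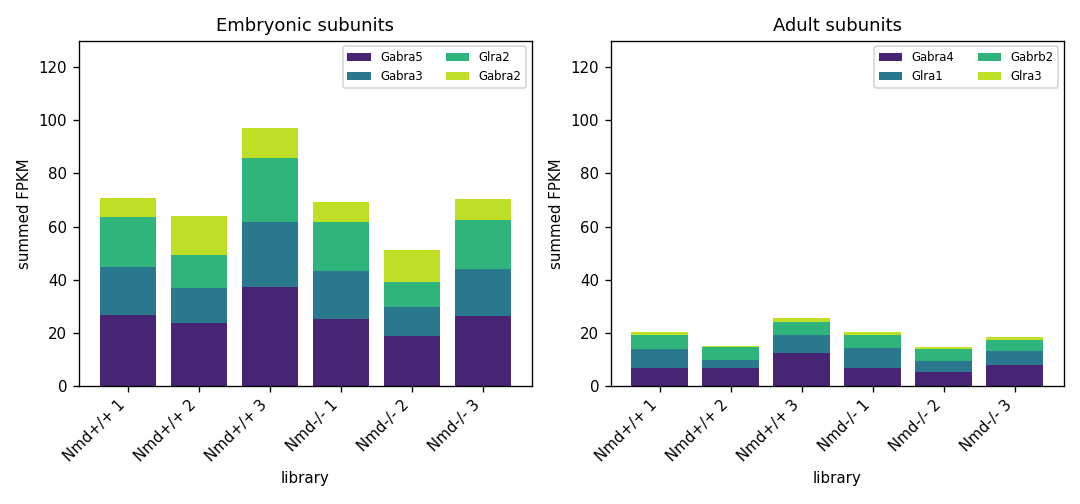
Summed FPKM per library of the subunits known as embryonic (left) and adult (right), stacked by gene on the same axis from 0; Gabra6 and Gabrd, under 0.05 FPKM, are not drawn. The embryonic stacks reach 51.3 to 97.1 FPKM and the adult stacks 14.6 to 25.7 FPKM.

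The chloride carriers were not highest in the same libraries. Slc12a2 was at 10.9, 17.4 and 12.8 FPKM in Nmd+/+ and 13.0, 14.03 and 15.9 FPKM in Nmd-/-. Slc12a5 was at 23.9, 15.6 and 31.1 FPKM in Nmd+/+ and 23.7, 13.9 and 21.7 FPKM in Nmd-/-. The exporter gene exceeded the importer gene in 4 libraries, numbers 1 and 3 of both genotypes, and lay at about the same level or just under it in number 2. The ratio of Slc12a2 to Slc12a5 was 0.457, 1.11 and 0.413 in Nmd+/+ and 0.550, 1.01 and 0.733 in Nmd-/-. Means were 0.661 ± 0.392 (SD, n = 3) in Nmd+/+ and 0.763 ± 0.230 (SD, n = 3) in Nmd-/-.

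The genotypes overlapped in this ratio, and their log2 difference of 0.32 did not pass the exact two-sided permutation test (p = 0.6, where the smallest possible p is 0.1). Within replicate numbers 1, 2 and 3 the log2 differences were 0.27, -0.14 and 0.83. An exact sign-flip test over these pairs, whose smallest p is 0.25, gave p = 0.5. The size shifted with most of the libraries left out. The log2 difference was 0.77 without Nmd+/+ 2 and 0.53 without Nmd-/- 1. It was 0.05 without Nmd+/+ 3, 0.10 without Nmd-/- 2 and 0.13 without Nmd+/+ 1. Without number 2 of both genotypes it was 0.55. Slc12a2 is also expressed by cells other than neurons, whereas Slc12a5 is a neuronal gene, and in bulk libraries fewer cells of a type and less RNA per cell cannot be told apart. Radial glia and astrocyte markers were at 4421 and 5064 FPKM in the number 2 libraries and between 3230 and 4303 FPKM in the others. Most of that sum was Vim, at 3645 and 4452 FPKM in number 2 and between 2380 and 3470 FPKM elsewhere. Over the 13 markers of that list the median log2 difference of numbers 2 and 1 was -0.02, so the list as a whole was not higher in number 2. Fibroblast markers were higher there, at 148 and 182 FPKM against at most 4.13 FPKM in the other libraries. The part of either kind of cell in the ratio was not tested.

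**Figure D3:**
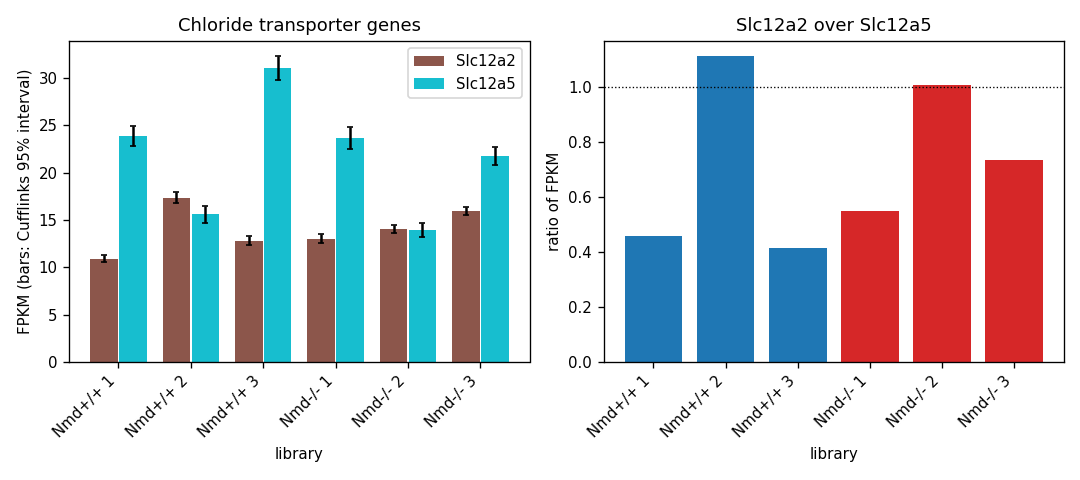
Left, FPKM of Slc12a2 (brown) and Slc12a5 (blue) in each library, with the 95% interval that Cufflinks gave for the library; right, their ratio, blue for Nmd+/+ and red for Nmd-/-, with a dotted line at 1. The ratio reaches 1.11 and 1.01 in number 2 and lies between 0.413 and 0.733 in the other libraries.

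No member passed the test between genotypes. Of the 19 tested, 0 had an adjusted p under 0.05 (limma on log2(FPKM + 1), Benjamini-Hochberg over 14611 genes), as did 0% of all genes. At an unadjusted p under 0.05 there were 0 members and 0.445% of all genes. By the mean, 17 of the 19 were lower in Nmd-/-, against 44% of all genes. The median of the members was -0.18 on the log2 scale and that of all genes 0.02. The other 2, Slc12a2 and Gabrg1, had differences of 0.08 (SE 0.18) and 0.002 (SE 0.27).

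The largest differences lay close together relative to their errors. Gabra4 differed by -0.31 (SE 0.24), Gabra5 by -0.29 (SE 0.21), Glra2 by -0.27 (SE 0.32) and Gabra3 by -0.24 (SE 0.26). Next came Slc12a5 at -0.22 (SE 0.28) and Gabrb1 at -0.22 (SE 0.18). Each was smaller than the half-width of its 95% interval, and the genotypes overlapped in all 19 genes. Lack of overlap was rare among all genes too, at 0.91% lower and 1.76% higher in Nmd-/-, so the members did not stand apart in this.

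Same-numbered libraries of the genotypes deviated together, so differences within a number were read as well. The pairing was weakest in number 3, with a correlation of 0.39 against at most 0.28 with a library of another number. In number 1 the median difference of the members was -0.03, in number 2 -0.01 and in number 3 -0.39, against 0.00, 0.02 and 0.04 for all genes. The lower levels were thus mainly those of the third pair. In that pair the neuron marker sum was 2148 FPKM in Nmd+/+ and 1656 FPKM in Nmd-/-. Xist there was at 272.6 FPKM in Nmd+/+ and 0.143 FPKM in Nmd-/-. In number 2 it was the reverse, at 0.155 and 258.9 FPKM, and only in number 1 was Xist alike, at 226.3 and 224.5 FPKM. The parts of neuron share and sex in these differences were not tested. Lower values in 3 of 3 pairs were seen for 8 of the 19 members and 10.6% of all genes, and higher values in 3 of 3 pairs for 0 members and 14.9% of all genes.

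With the replicate number as a block, 0 members and 0% of all genes passed after adjustment. In limma, unadjusted p-values were under 0.05 for 3 members and 4.87% of all genes. They were Gabra5 (0.0278), Gabra4 (0.0329) and Glra2 (0.0427), all lower in Nmd-/-, against 1.74% of all genes lower and 3.13% higher by that rule. Their adjusted p-values in this limma fit were 0.990, 0.990 and 0.999.

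The count of lower members varied with the libraries used. Without number 2 of both genotypes, which keeps the pairs whole, 18 of 19 were lower, with a median of -0.20. Leaving out 1 library breaks a pair, so that differences between replicate numbers enter the genotype difference. The count was then 12 of 19, with a median of -0.03, without Nmd+/+ 3, and 10 of 19, with a median of -0.02, without Nmd-/- 2. It was 16 or 17 without each of the other 4 libraries, with a median of -0.32 without Nmd+/+ 2. Of the 19 differences, 11 changed sign in at least 1 of these 6 unpaired fits. When FPKM were divided by the level of the 14 neuron markers in each library, 10 of 19 members were lower, against 8.56% of all genes, with a median of -0.01 for the members and 0.18 for all genes.

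**Figure D4:**
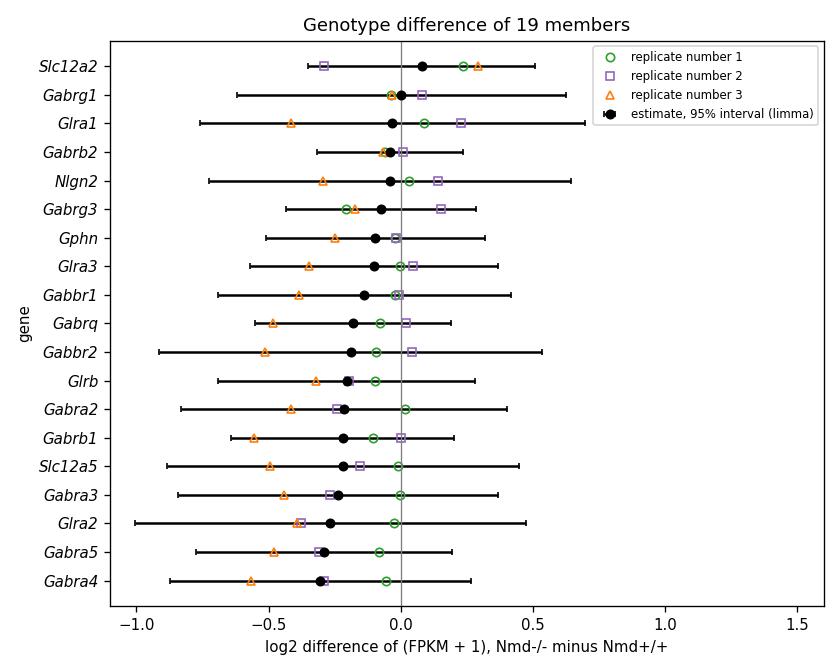
Difference of log2(FPKM + 1), Nmd-/- minus Nmd+/+, for the 19 tested members: black points with 95% intervals from limma over 3 and 3 libraries, open symbols for each replicate number. All intervals include 0, and for most genes replicate number 3 lies furthest to the left.

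Most of the tested members differed between replicate numbers. In a model with both terms, 12 of the 19 members differed between replicate numbers at an adjusted p under 0.05 (limma F-test over all 14611 genes), against 28.6% of all genes. Of these, 10 were lower in number 2 than in number 1, against 15.9% of all genes, and 2 were higher, against 12.7%. These counts depend on the filter: with no minimum level, 0 members and 0 of 27711 genes passed after adjustment, the 12 members had adjusted p-values between 0.155 and 0.199, and unadjusted p-values were under 0.05 for 16 members and 22.9% of all genes. The labels do not say what the numbers stand for.

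The genes that were lower encode subunits of GABA-A, GABA-B and glycine receptors, neuroligin 2 and the chloride exporter. Averaged over the genotypes, the level in number 2 as a share of that in number 1 was 0.483 for Glra1, 0.536 for Nlgn2, 0.541 for Gabbr2 and 0.584 for Glra2, with adjusted p-values of 0.0108, 0.00613, 0.00726 and 0.00398. It was 0.620 for Slc12a5, 0.634 for Gabbr1, 0.668 for Glrb and 0.686 for Gabra3. The sum of the neuron markers stood at 0.507 of its level in number 1, and 14 of 14 of its genes passed the same test. Inhibitory interneuron markers stood at 0.465, with 7 of 7 passing. Gabra5 (0.813) and Gabra4 (0.885) passed too, and were also higher in number 3, at 1.22 and 1.49 times number 1.

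Gabra2 and Gabrg1 went the other way. Gabra2 in number 2 was 1.798 times and in number 3 1.32 times its level in number 1 (adjusted p = 0.0113). Gabrg1 was 1.61 times and 1.94 times as high (adjusted p = 0.00711). These genes lie side by side on chromosome 5, Gabrg1 at 70751047 to 70842617 and Gabra2 at 70961057 to 71095849, in a cluster that goes on with Gabra4 and Gabrb1. Of these, Gabra4 passed mainly through number 3, which was higher than number 1 by 0.49 in log2. Its difference between numbers 2 and 1 was -0.16, and 0.027 without Nmd-/- 1. Gabrb1 (1.02 times) did not pass the test (adjusted p = 0.203). Likewise on chromosome 7, Gabra5 passed and its neighbour Gabrg3 (1.16 times, adjusted p = 0.313) did not.

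The remaining members gave no call. Gphn was at 0.739 of its number 1 level (adjusted p = 0.0696), Glra3 at 0.559 (adjusted p = 0.0990) and Gabrq at 0.772 (adjusted p = 0.583). Gabrb2 was at 0.931 (adjusted p = 0.817), and Slc12a2 at 1.31 times (adjusted p = 0.214).

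Calls for Glra1, Glra2, Gabra3, Gabbr2, Nlgn2 and Slc12a5, 6 of the 12, were also made without each of the 6 libraries. The other 6 lost theirs without at least 1 library: Gabra2 without Nmd+/+ 1 (adjusted p = 0.109), Gabrg1 and Gabbr1 without Nmd-/- 1 (0.0650 and 0.0946), Glrb without number 1 of either genotype (0.102 and 0.195), and Gabra4 without Nmd+/+ 3 (0.181). Gabra5 lost it without Nmd+/+ 1, Nmd+/+ 3 or Nmd-/- 1 (0.0662, 0.125 and 0.0641). Relative to the neuron markers the counts changed direction: 8 members and 83.5% of all genes passed, the 8 members all higher in number 2 than in number 1, as were 82.6% of all genes by that rule, while 0.958% were lower. On that scale Glra1 differed by -0.08 (adjusted p = 0.901) and Nlgn2 by 0.06 in log2 between numbers 2 and 1, whereas Slc12a2 was higher by 1.26. The part of the neuron share of the cultures in these differences was not tested.

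**Figure D5:**
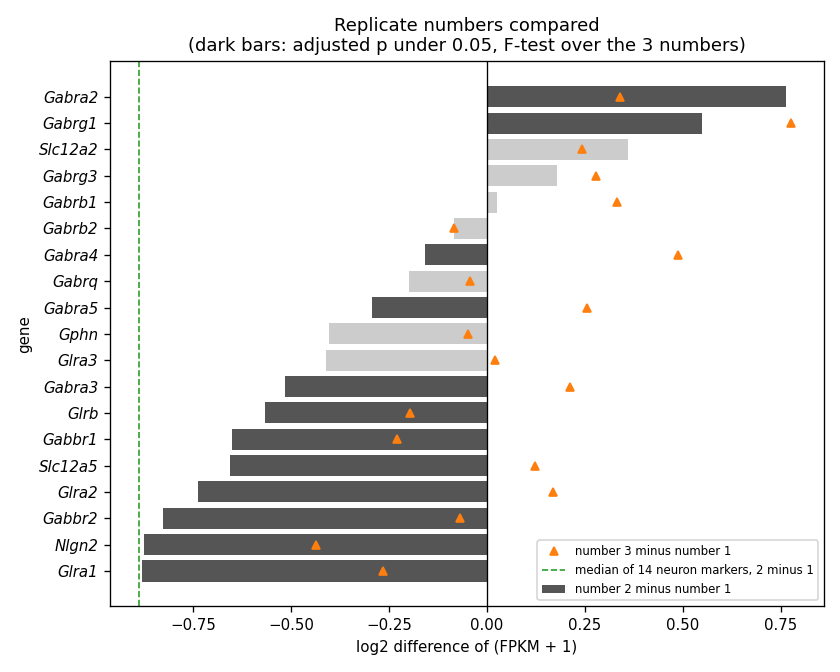
Difference of log2(FPKM + 1) between replicate numbers, averaged over the genotypes, for the 19 tested members: bars give number 2 minus number 1 (dark where the adjusted p of the F-test over the 3 numbers was under 0.05), triangles number 3 minus number 1, and the dashed line the median of the 14 neuron markers at -0.89. Glra1, Nlgn2 and Gabbr2 lie close to the line, and Gabra2 and Gabrg1 lie on the other side of 0.

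Other genes of inhibitory transmission and chloride handling were read from a list of 65 genes in the tables, of which 59 were tested. Between genotypes 0 of the 59 passed and 0 had an unadjusted p under 0.05, and 39 were lower by the mean (66.1%, against 44% of all genes; median -0.06). With the replicate block, 0 passed after adjustment in limma, and unadjusted p-values were under 0.05 for 6 of the 59, 2 lower and 4 higher in Nmd-/- (10.2%, against 4.87% of all genes). Gad1, which makes GABA, was at 117, 46.9 and 88.0 FPKM in Nmd+/+ and 112, 58.0 and 69.0 FPKM in Nmd-/-. Gad2 lay between 10.3 and 22.3 FPKM, the vesicular carrier gene Slc32a1 between 9.30 and 31.3 FPKM, and Slc6a5, the glycine transporter of glycinergic neurons, between 18.1 and 32.3 FPKM. Slc6a9, the glial glycine transporter, lay between 5.94 and 12.8 FPKM. Gad1, Gad2, Slc32a1 and Slc6a5 were lowest in the number 2 libraries, as most receptor genes were, and Slc6a9 was highest in them.

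In the fit without the block, the smallest unadjusted p-values of this list were those of 2 further members of the Slc12 family. Slc12a8 was at 1.89, 1.65 and 1.64 FPKM in Nmd+/+ and 2.22, 2.70 and 2.18 FPKM in Nmd-/-, a log2 difference of 0.30 (limma, unadjusted p = 0.0555). The potassium chloride exporter gene Slc12a7 was at 7.38, 7.18 and 5.17 FPKM in Nmd+/+ and 8.39, 8.59 and 7.87 FPKM in Nmd-/-, a difference of 0.31 (unadjusted p = 0.0869). In both genes the groups did not overlap and Nmd-/- lay higher, as for 1.76% of all genes. Slc4a10, a bicarbonate carrier gene, differed by -0.37 (unadjusted p = 0.110), also without overlap, and the GABA transporter gene Slc6a11 by -0.70 (unadjusted p = 0.209). With the replicate block the order differed, with unadjusted p-values in limma of 0.0187 for Slc6a11, 0.0189 for Slc4a10, 0.0244 for Slc12a7 and 0.0332 for Slc12a8, all at an adjusted p of 0.990. Among the highest levels in the list were those of Dbi (2265 FPKM on average), Gabarap (442 FPKM) and Wnk1 (215 FPKM), genes expressed in many cell types. Between replicate numbers 30 of the 59 passed (50.8%, against 28.6% of all genes), 26 of them lower in number 2 than in number 1 (44.1%, against 15.9% of all genes).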

How the data were processed

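The authors deposited 1 table per library with FPKM per gene, the bounds of a 95% interval and a status, a format of Cufflinks, per the file headers. Cufflinks 2.2.1, SAMtools 1.3, cutadapt 1.8 and the build GRCm38 are named in the submitters' processing notes. The sources used here do not give the aligner, the annotation release or the use of strand. In GENCODE M21, exons of Gabra4 and Gabrb1 share 46 bases on opposite strands, and exons of Gabra5, Glra1, Gphn and Gabrr3 share 148, 141, 147 and 279 bases with noncoding genes on the opposite strand, so reads there may not have been told apart. Coordinates are printed from 1 in the build of the files.

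From these FPKM, log2(FPKM + 1) values of genes with a mean of at least 1 FPKM and an accepted status in every library (14611) were fitted with limma 3.58.1 in R 4.3.3, with an intensity trend and no rescaling, for genotype alone and for replicate number with genotype. The fold changes understate those of low genes. Adjusted p-values are Benjamini-Hochberg values over all tested genes, two-sided, with a threshold of 0.05. Fragment equivalents are the fragments that would give the deposited interval by counting error, and they cover estimation within a library only. Same-numbered libraries had deviations from their group means that correlated across genes at 0.82, 0.70 and 0.39 for numbers 1, 2 and 3. The highest correlation with a library of the other genotype and another number was 0.28, 0.11 and 0.28. No label states this pairing, which was read from the data.

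Scripts were tested on simulated data. Members and lists were chosen with earlier results of these data known. Every member was to be described, with its value in each library where the mean reached 1 FPKM. Of the list of other inhibitory genes, the 4 with the smallest unadjusted p, the 4 with the highest mean and 6 enzymes and carriers were to be named, and of cell type markers the list sums and defining genes. Some genes that this rule names are not reported here. Promoter windows came from RefSeq (GRCm38.p6) and were searched in Python 3.11.15.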

Additional observations from a re-analysis of the deposited data

How the results depend on the processing

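Alternatives were the replicate block, no filter on low values, median-of-ratios scaling, a pseudocount of 0.1 FPKM, quantile normalization, a minimum mean of 5 FPKM, no intensity trend, genotype left out of the replicate model, and leaving out each library. Scaling to neuron markers and leaving out number 2 of both genotypes were chosen after seeing the data. Under all that were run, 0 genes and 0 members passed between genotypes (of 14611 genes and 19 members, except 27711 and 27 with no filter and 10463 and 14 at a minimum mean of 5 FPKM), and the replicate block changed no call after adjustment, for the members, the other inhibitory genes and the Slc12a2 to Slc12a5 ratio alike. The number of all genes that differed between replicate numbers, 4173, became 0 with no filter on low values and 12207 when scaled to neuron markers, and ranged from 2280 to 6470 when 1 library was left out; for members it was 0 with no filter and between 8 and 15 without 1 library. The cause was not tested. With genotype left out of the replicate model, 10 members passed, without Gabra4 (adjusted p = 0.0667) and Gabra5 (0.0923). Genotype differences (log2) that changed sign when scaled to neuron markers were those of Glra1 (0.13), Gabrb2 (0.11), Gabbr1 (0.047), Glra3 (0.0073), Gphn (0.077), Nlgn2 (0.14) and Gabrg3 (0.084). That of Gabrg1 was -0.018 under median-of-ratios scaling, -0.022 under quantile normalization and -0.036 without number 2 of both genotypes. Between replicate numbers 2 and 1, the same scaling turned Gabrb2 (0.72), Slc12a5 (0.26), Glra2 (0.16), Gabbr1 (0.30), Glrb (0.37), Gabra4 (0.68), Gabra3 (0.39), Gabrq (0.32), Glra3 (0.062), Gabbr2 (0.072), Gphn (0.49), Nlgn2 (0.059) and Gabra5 (0.63) from lower to higher. Leaving out 1 library gave genotype differences from -0.35 to 0.0080 for Gabbr1, -0.51 to 0.017 for Gabbr2, -0.21 to 0.23 for Gabrg1, -0.15 to 0.033 for Gabrg3, -0.35 to 0.15 for Glra1, -0.51 to 0.036 for Glra2, -0.28 to 0.036 for Glra3, -0.24 to 0.010 for Gphn, -0.30 to 0.16 for Nlgn2, -0.060 to 0.25 for Slc12a2 and -0.48 to 0.0019 for Slc12a5. It gave differences of numbers 2 and 1 from -0.34 to 0.027 for Gabra4 and from -0.14 to 0.19 for Gabrb1. Median-of-ratios scaling moved the median of all genes from 0.02 to -0.004. Genes higher in Nmd-/- were 56.0% of all genes and 48.7% under median-of-ratios scaling. Where 1 library was left out of a genotype of 3, the spread was pooled over the genotypes.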
